A study of Mus musculus with 6 samples.

Results

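The genes described here are 48 genes that dividing cells express: 23 that copy DNA or open S phase (replication members) and 25 that build the spindle, segregate chromosomes or close the cell (mitosis members). They were taken by symbol from a list of names, and all 48 were found among the 24421 genes of the count files. All 48 also passed the filter on low counts, with no member under 152 reads in any library. RNA was measured in mouse sciatic nerve, the large mixed nerve of the hind limb, in 3 libraries labelled YAP/TAZ-DBL-cKO (called cKO here) and 3 labelled YAP/TAZ-WT (WT), which the design text describes as wild-type control mice. The labels name no age, strain, Cre driver or deleted exon and do not say whether nerves were pooled. YAP and TAZ are co-activators that the Hippo pathway restrains, and the title of the series sets them beside Schwann cell proliferation, which is the question these genes bear on.

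Gene counts per library ran from 24651262 to 32003497 in cKO and from 41270894 to 47044158 in WT, so depth and genotype go together. Yap1 stood at 103 to 109 CPM (counts scaled by library size and TMM factor) in cKO and 120.4 to 124 CPM in WT and was not called lower (edgeR adjusted p = 0.145). Wwtr1, which encodes TAZ, stood at 337 to 372 CPM in cKO and 254 to 284 CPM in WT and was called higher (edgeR adjusted p = 0.0208). Whole-gene counts need not show a partial deletion, so these values check no label, and every direction below is drawn from the labels. The Schwann cell factor Sox10 was present in every library, at 405 to 571 CPM. The library WT 3 stood apart from the other 5 in the genes described here, and the comparisons of members and of marker lists are therefore given with and without it. WT 3 was singled out from earlier results of these data.

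DNA replication starts where the licensing factor Cdc6 helps to load the Mcm2 to Mcm7 helicase ring. Cdc45 and the GINS complex then activate the ring, primase and polymerase alpha start new strands, and the clamp Pcna tethers the enzymes that extend and finish them. In mitosis, cyclins A and B with Cdk1 drive entry, kinesins and Tpx2 shape the spindle, kinetochore proteins such as Ndc80 hold chromosomes to it, and Anln closes the cleavage furrow. E2F factors switch on many replication genes at the entry into S phase, while the DREAM and B-Myb complexes act on many mitosis genes through a promoter element called CHR. In the nerve of a young mouse, immature Schwann cells divide before they settle on an axon and myelinate it.

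All 48 members were lowest in WT 3. Each of the 23 replication and 25 mitosis members had its smallest CPM of the 6 libraries there, whereas WT 3 was the lowest library for 22.5% of all tested genes. The members took 0.161% of the gene counts in WT 3, against 0.291% and 0.294% in WT 1 and WT 2 and 0.279% to 0.290% in the cKO libraries. In bulk tissue, fewer dividing cells and less of these RNAs per dividing cell cannot be told apart. Mki67, the proliferation marker that coats mitotic chromosomes, gave 215, 227 and 229.9 CPM in cKO 1, 2 and 3 and 240.2, 231 and 144 CPM in WT 1, 2 and 3. The cKO libraries thus lay just under WT 1 and WT 2 and far above WT 3. Top2a, which untangles sister DNA, gave 187, 194 and 202 CPM in cKO and 220.3, 211 and 107 CPM in WT, in the same order.

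**Figure D1:**
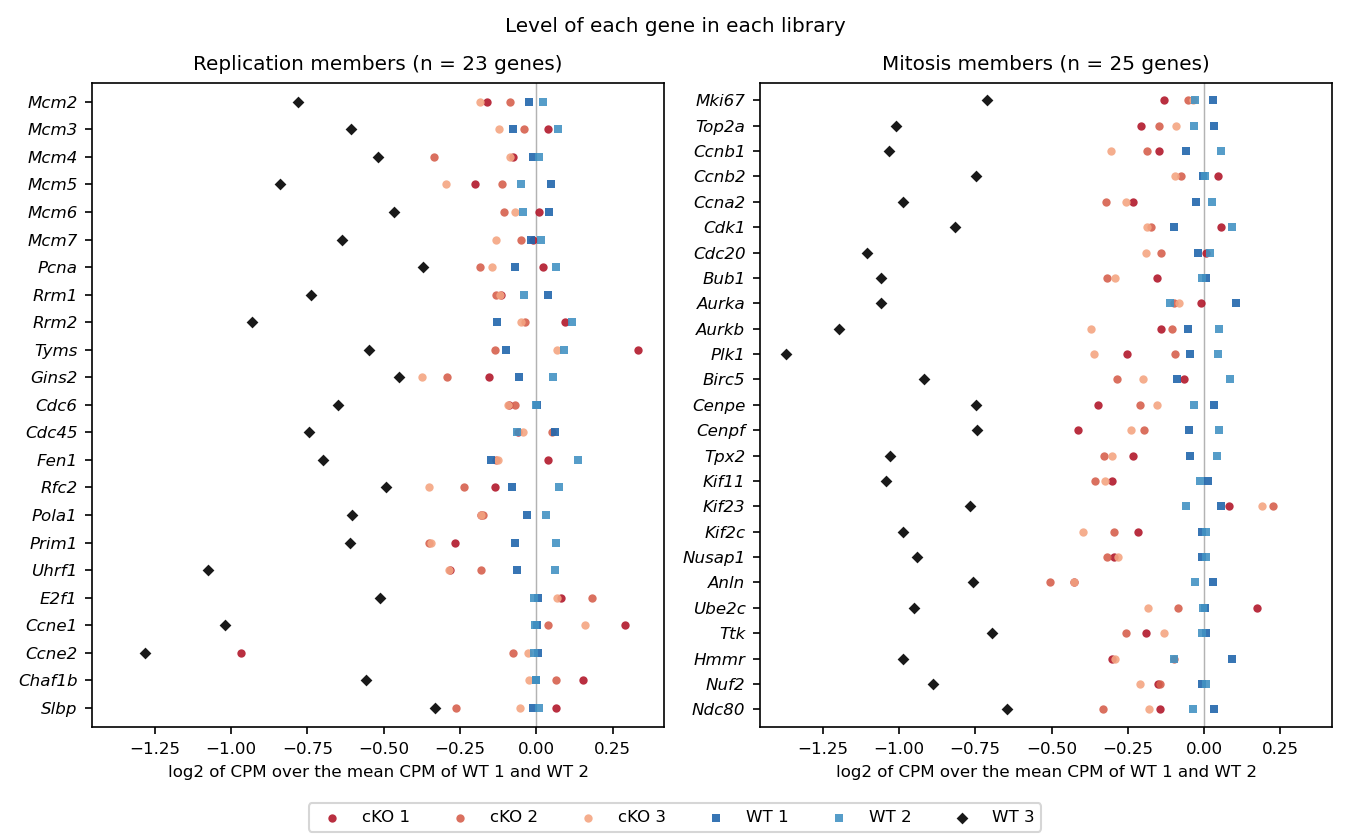
Level of each member in each library, as the log2 of its CPM over the mean CPM of WT 1 and WT 2 (x axis); each row is a gene, circles are the 3 cKO libraries, squares WT 1 and WT 2, and the black diamond WT 3. The diamond is the leftmost point in all 48 rows, and the cKO circles of most mitosis genes lie left of the squares.

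WT 3 lay further below its group in the mitosis members than in the replication members. Against the mean of WT 1 and WT 2, its log2 difference had a median of -0.61 over replication members (from -0.33 for Slbp to -1.27 for Ccne2) and of -0.95 over mitosis members (from -0.64 for Ndc80 to -1.37 for Plk1). The median over all tested genes was 0.00. A difference below -0.5 was found for 18 of 23 replication members and 25 of 25 mitosis members, and for 8.31% of all tested genes. Plk1, the kinase that drives centrosome maturation and spindle assembly, gave 37.7 and 40.2 CPM in WT 1 and WT 2 and 15.1 CPM in WT 3, and a single library allows no test. Pcna (190.8 and 209.6 against 155 CPM) and Slbp, which handles histone messages (48.7 and 49.4 against 39.0 CPM), differed least. No cKO library was set apart from its group in this way. In cKO 1, 2 and 3, 14, 26 and 33 of 48 members lay below the mean of the other cKO libraries. The shares of all tested genes were 54.5%, 45.5% and 47.3%. In cKO 3, 19 of 23 replication and 14 of 25 mitosis members were below. The median differences of either set stayed between -0.05 and 0.10. Without WT 3, the highest of the other 5 libraries was at most 1.5-fold above the lowest for 47 of 48 members, the exception being Ccne2 (1.97-fold).

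**Figure D2:**
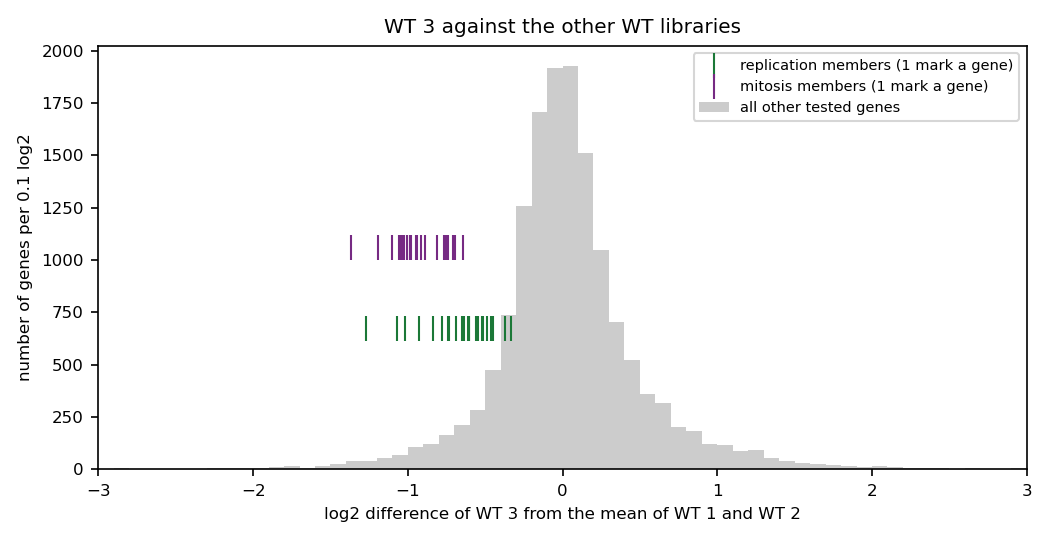
Log2 difference of WT 3 from the mean of WT 1 and WT 2 (x axis); grey bars count all other tested genes per 0.1 log2 (y axis), and each coloured mark is 1 member, with the height of the marks chosen only for display. All marks lie left of 0, with medians of -0.61 for replication and -0.95 for mitosis members.

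Markers of other cell types also set WT 3 apart from WT 1 and WT 2, and their part in the difference was not tested. WT 3 was above the mean of WT 1 and WT 2 for 8 of 8 endothelial, 7 of 7 pericyte and smooth muscle, 9 of 9 macrophage and 9 of 9 fibroblast and perineurial markers, with summed CPM 1.47, 1.75, 1.39 and 1.30 times theirs. Of all tested genes, 49.6% lay below the mean of WT 1 and WT 2 in WT 3. The summed adipocyte level of WT 3 was 469 CPM, against 95.1 and 91.7 CPM. All cKO libraries were above WT 1 and WT 2 in these sums too. Endothelial sums were 473 to 541 CPM in cKO, 530 CPM in WT 3 and 368 and 352 CPM in WT 1 and WT 2. In the same order, macrophage sums were 448 to 482, 509, and 366 and 366 CPM. Pericyte and smooth muscle sums were 406 to 468, 478, and 281 and 264 CPM. Adipocyte sums in cKO were 315 to 466 CPM. Of 8 Schwann lineage markers, 4 lay below and 4 above the mean of WT 1 and WT 2 in WT 3 (median log2 difference -0.02), Sox10 among the lower at 405 CPM against 545 and 571 CPM, and their sum is not given here. The 12 ubiquitous genes summed to 0.999 times the others. The 7 erythroid markers summed to 59.2 CPM in WT 3, 0.518 times the mean of WT 1 and WT 2, with Hbb-bt at 0 in all libraries. WT 1 and WT 2 themselves differed, at 143 and 86.0 CPM, and the cKO sums were 116 to 149 CPM.

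A few promoters of each set are shown because they hold letters known from cell cycle genes, which were then counted in both sets. RefSeq promoters (GRCm38.p6, the assembly of the files' mm10 build), 250 bases before to 50 after the start, were found for 41 of 48 members, and for the 3 with several starts the first listed was used. An E2F match was any of TTTGGCGC, TTTCCCGC and TTTCGCGC, a CHR match was TTTGAA or TTCGAA, and a CCAAT match was CCAAT, each on either strand. Overlapping E2F matches (as in Mcm6 and Mcm5) count a promoter only once. The printed windows hold the 160 bases before the start, 5′ to 3′ along the gene, with every such match in capitals. Mcm6 (chr1:128359706-128359865, minus strand) and Mcm5 (chr8:75109349-75109508, plus strand), subunits of the helicase, show E2F and CCAAT letters. Kif11 (chr19:37376222-37376381, plus strand), the motor that pushes spindle poles apart, Cdc20 (chr4:118437344-118437503, minus strand), the activator of the anaphase-promoting complex, and Cdk1 (chr10:69352913-69353072, minus strand) show CHR and CCAAT letters, and Cdk1 has E2F letters further upstream.
Mcm6: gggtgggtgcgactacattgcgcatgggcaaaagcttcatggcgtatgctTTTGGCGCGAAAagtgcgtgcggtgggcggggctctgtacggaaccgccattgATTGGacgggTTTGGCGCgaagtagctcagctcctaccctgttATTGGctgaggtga
Mcm5: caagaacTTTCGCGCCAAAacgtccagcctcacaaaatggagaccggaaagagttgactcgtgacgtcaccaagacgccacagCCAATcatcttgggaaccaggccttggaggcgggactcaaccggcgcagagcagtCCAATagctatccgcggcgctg
Kif11: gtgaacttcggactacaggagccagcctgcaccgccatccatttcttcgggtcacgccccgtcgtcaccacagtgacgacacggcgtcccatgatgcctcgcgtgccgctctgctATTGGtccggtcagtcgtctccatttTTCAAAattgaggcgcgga
Cdc20: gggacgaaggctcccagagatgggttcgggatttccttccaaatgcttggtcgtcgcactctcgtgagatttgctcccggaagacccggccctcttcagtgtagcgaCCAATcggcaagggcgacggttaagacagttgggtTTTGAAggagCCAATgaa
Cdk1: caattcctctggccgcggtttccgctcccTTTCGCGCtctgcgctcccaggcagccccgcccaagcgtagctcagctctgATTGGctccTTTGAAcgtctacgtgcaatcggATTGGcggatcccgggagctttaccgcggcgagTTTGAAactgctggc

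The CHR letters stood in 17 of 22 mitosis promoters (77.3%) and 4 of 19 replication promoters (21.1%), beside 13.7% of the promoters of tested genes and 19.4% of all promoters in the table. Within 30 bases before to 50 after the start, a window chosen after the positions were seen, they stood in 15 of 22 mitosis promoters, 1 of 19 replication promoters and 2.73% of the promoters of tested genes. E2F letters stood in 6 of 19 replication promoters (31.6%), in 1 of 22 mitosis promoters, that of Cdk1, and in 3.40% of the promoters of tested genes. CCAAT letters were common to both sets, in 13 of 19 and 16 of 22, against 38.3%. These are matches of letters, not measured sites. Anln, described below, has CHR letters 22 and 29 bases after its start, while Nusap1 has none of the 3 motifs in this window.

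With all 6 libraries, no member was called changed between cKO and WT. Of 23 replication and 25 mitosis members, 0 were called by edgeR at an adjusted p under 0.05, where 10.9% of all 14789 tested genes were called. An unadjusted p under 0.05 was found for 0 members and for 3641 of all tested genes. DESeq2 and limma-voom also called 0. The median log2 fold change was 0.08 for replication members (from -0.14 to 0.43) and 0.06 for mitosis members (from -0.24 to 0.38), beside 0.02 for all tested genes. The groups did not overlap for 3 members, E2f1, Ccne1 and Kif23, all higher in cKO, against 31.1% of all tested genes that did not overlap in either direction. The spread set by WT 3 is visible in the standard errors (SE), whose median over mitosis members was 0.22 with WT 3 and 0.09 without it.

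Without WT 3, most members had negative fold changes, and 5 mitosis members were called lower in cKO. WT 3, the lowest library for every member, was singled out from earlier results of these data. Leaving it out lowered the fold change of every member, and the p-values of this fit do not account for that choice. Negative values were found for 24 of 25 mitosis members (median -0.24, 15.1% lower) and 19 of 23 replication members (median -0.11), beside a median of -0.02 for all tested genes. The 5 calls compare with 7.50% of 14941 tested genes called lower and 7.19% called higher. In the replication set 0 were called by edgeR in either direction, and DESeq2 called 1 lower, Uhrf1. An unadjusted edgeR p under 0.05 was found for 5 of 23 replication and 12 of 25 mitosis members, against 4438 of 14941 tested genes. All 3 cKO libraries lay below WT 1 and WT 2 for 18 of 25 mitosis and 11 of 23 replication members, against 26.2% of tested genes. The 5 mitosis calls went to 1 without cKO 2 or cKO 3, to 0 without WT 1 or WT 2, and to 1 with total counts in place of TMM factors, a scaling that raised the median of all genes by 0.12 and turned the replication median to 0.01. Relative to the median of all genes, the mitosis median was -0.22 with either scaling and the replication median -0.09.

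**Figure D3:**
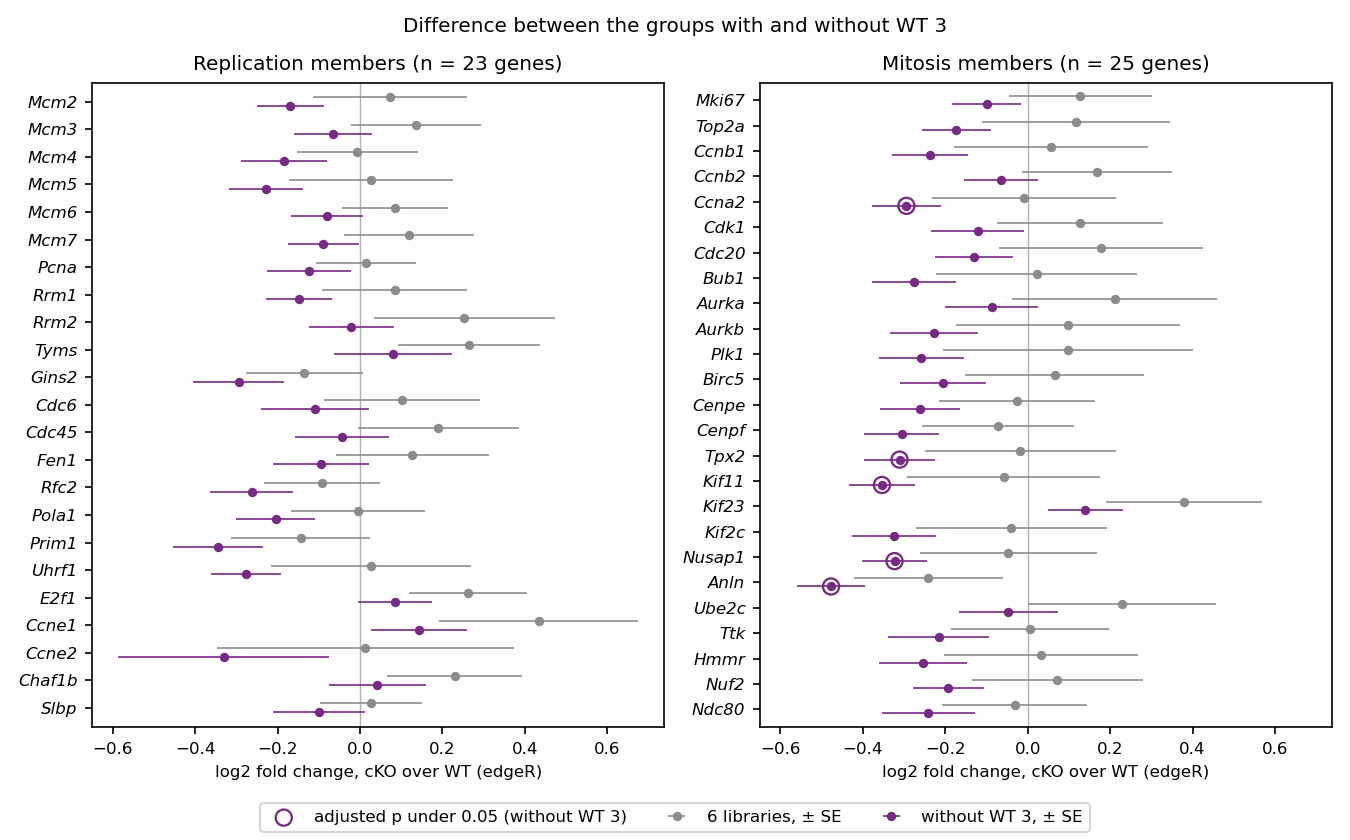
Log2 fold change of each member, cKO over WT, from edgeR (x axis), with bars of ± 1 SE; grey points use all 6 libraries, purple points leave out WT 3, and rings mark adjusted p under 0.05. Rings mark 5 mitosis genes (Ccna2, Tpx2, Kif11, Nusap1 and Anln) and 0 replication genes, and the purple points lie left of the grey ones because WT 3 is the lowest library for all 48 genes.

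Leaving out WT 3 also changed the marker calls between cKO and WT: 6 of 8 endothelial, 5 of 7 pericyte and smooth muscle, 5 of 9 macrophage and 8 of 8 adipocyte markers were then called higher in cKO, against 0, 0, 0 and 1 with 6 libraries. Fibroblast and perineurial markers stayed at 1 of 9 called higher in both fits, and mast cell markers at 2 of 6 tested. Of all tested genes, 706 of 14789 were called higher with 6 libraries, and 7.19% without WT 3. Of 8 Schwann lineage markers, 2 were called lower and 0 higher with 6 libraries, and 2 lower and 1 higher without WT 3. In the cKO libraries, 12 skeletal muscle markers summed to 4447 to 9556 CPM against 437 to 1690 CPM in WT, with 11 of 12 called higher (10 without WT 3). For 6 markers of muscle progenitors, cells that can divide, the sums were 31.9 to 59.5 against 2.25 to 8.72 CPM with 5 of 6 called higher (6 without WT 3), and for 9 lymphocyte markers 18.3 to 27.6 against 8.03 to 9.92 CPM with 4 of the 7 tested called higher (3 without WT 3). The part of these markers in the members' values was not tested.

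Anln, the anillin scaffold of the contractile ring, had the largest of these differences. It gave 53.8, 50.9 and 53.7 CPM in cKO 1, 2 and 3, 73.8 and 70.7 CPM in WT 1 and WT 2, and 42.7 CPM in WT 3. All cKO libraries were thus below WT 1 and WT 2 and above WT 3. Its log2 fold change was -0.48 ± 0.08 (SE, 3 against 2 libraries) without WT 3, 28.2% lower (edgeR adjusted p = 0.00756), and -0.24 ± 0.18 with all 6 (edgeR adjusted p = 0.474). Anln was the member whose call held under most alternatives of the fit without WT 3, in 10 of 13. Its call was lost without WT 1, without WT 2 and with the replicate block. All of these alternatives leave out WT 3, and no member was called under any that kept it.

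The other calls were spindle proteins and cyclin A2, each 18.5% to 21.7% lower in cKO without WT 3. Kif11, the pole-separating motor whose promoter is shown above, gave 54.7, 52.6 and 53.8 CPM in cKO and 68.1, 66.8 and 32.8 CPM in WT 1, 2 and 3 (log2 -0.35 ± 0.08 without WT 3, edgeR adjusted p = 0.0218). Nusap1, which bundles spindle microtubules around chromosomes, gave 50.9, 50.05 and 51.3 CPM in cKO and 62.1, 62.7 and 32.5 CPM in WT (log2 -0.32 ± 0.08, edgeR adjusted p = 0.0280). Both genes put all 3 cKO libraries in a narrow band between WT 3 and the other WT libraries. Tpx2, which activates Aurora A on the spindle, gave 74.6, 69.9 and 71.2 CPM in cKO and 85.0, 90.4 and 43.0 CPM in WT (log2 -0.31 ± 0.09, edgeR adjusted p = 0.0425). Ccna2, the cyclin of S phase and early mitosis, gave 99.8, 93.9 and 98.3 CPM in cKO and 115, 119.5 and 59.1 CPM in WT (log2 -0.29 ± 0.08, edgeR adjusted p = 0.0471). With all 6 libraries these 4 genes had log2 fold changes between -0.06 and -0.01, and their sign turned positive under several alternatives. Ccna2 shares 510 exonic bases with Exosc9 and Nusap1 172 with Oip5. Reads there may have been set aside as ambiguous or counted for either gene, since annotation and strand setting are not given.

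The remaining mitosis members did not pass in either fit. Among the mitotic cyclins, Ccnb1 gave 62.8, 61.0 and 56.3 CPM in cKO and 66.8, 72.3 and 34.0 CPM in WT (log2 -0.24 ± 0.09 without WT 3, edgeR adjusted p = 0.124). Ccnb2 was closer to 0 (log2 -0.06 ± 0.09), as was Cdk1, their kinase, at 108, 92.3 and 91.6 CPM in cKO and 97.3, 111 and 59.2 CPM in WT (log2 -0.12 ± 0.11). For Ccnb1 all cKO libraries lay below WT 1 and WT 2, while for Cdk1 the ranges overlapped. The kinetochore genes Ndc80, Nuf2, Cenpe and Cenpf all had their cKO libraries below WT 1 and WT 2, with log2 values from -0.31 to -0.19 without WT 3. The kinases Aurka, Aurkb, Plk1, Ttk and Bub1 and the passenger protein Birc5 ranged from -0.28 to -0.09, and 4 of these 6 had all cKO libraries below WT 1 and WT 2. Kif2c, a microtubule-depolymerising kinesin, and Hmmr, a spindle assembly protein, had log2 values of -0.32 ± 0.10 and -0.26 ± 0.11.

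Kif23 was the 1 mitosis member with a positive fold change without WT 3, where 16 of 25 were positive with 6 libraries. It encodes a motor of the centralspindlin complex that brings the cleavage machinery to the middle of the spindle. It gave 36.9, 40.7 and 39.8 CPM in cKO and 36.2, 33.5 and 20.5 CPM in WT, so every cKO library lay above every WT library. Its log2 fold change was 0.38 ± 0.19 with 6 libraries (edgeR adjusted p = 0.259) and 0.14 ± 0.09 without WT 3 (edgeR adjusted p = 0.353). Ube2c, which supplies ubiquitin to the anaphase-promoting complex, gave 82.5, 68.9 and 64.3 CPM in cKO and 73.3, 73.0 and 37.9 CPM in WT, overlapping ranges (log2 0.23 ± 0.23 with 6 libraries and -0.05 ± 0.12 without WT 3). Ube2c shares 592 exonic bases with Tnnc2, a skeletal muscle gene whose list was higher in cKO, and whether this moved Ube2c was not tested. Cdc20 had a log2 value of -0.13 ± 0.09 without WT 3.

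Among the replication members, the MCM helicase subunits moved within a narrow range. Without WT 3 all 6 were negative, from -0.06 for Mcm3 to -0.23 for Mcm5, and 0 were called. Mcm2 gave 52.3, 55.2 and 51.5 CPM in cKO and 57.6, 59.4 and 34.0 CPM in WT (log2 0.07 ± 0.19 with 6 libraries and -0.17 ± 0.08 without WT 3, edgeR adjusted p = 0.206). For Mcm2, Mcm4 and Mcm5 all cKO libraries were below WT 1 and WT 2. Of the factors that complete the helicase, Gins2 was 18.4% lower without WT 3 (29.6, 27.0 and 25.4 CPM in cKO; 31.7, 34.3 and 24.1 CPM in WT; edgeR adjusted p = 0.114), but 2758 of its 4097 exonic bases are shared with Gse1. Cdc45 and Cdc6 had log2 values of -0.04 ± 0.11 and -0.11 ± 0.13.

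None of the polymerase, primase and clamp genes passed the test in either fit. Prim1, the catalytic subunit of primase, gave 21.1, 19.9 and 19.97 CPM in cKO and 24.2, 26.5 and 16.6 CPM in WT (log2 -0.34 ± 0.11 without WT 3, edgeR adjusted p = 0.0701). Its cKO libraries all lay between WT 3 and the other WT libraries. Pola1 had a log2 value of -0.20 ± 0.10. Pcna gave 203, 176 and 181 CPM in cKO and 190.8, 209.6 and 155 CPM in WT, overlapping ranges with a log2 fold change of -0.12 ± 0.10 without WT 3. Rfc2, of the clamp loader, and Fen1, which trims Okazaki fragments, had log2 values of -0.26 ± 0.10 and -0.09 ± 0.12, and both share exonic bases with a neighbour (Lat2 and Tmem258). Uhrf1, which carries DNA methylation through replication, gave 74.0, 79.4 and 73.9 CPM in cKO and 86.2, 94.0 and 42.7 CPM in WT. Its log2 fold change was -0.28 ± 0.08 without WT 3 (edgeR adjusted p = 0.0638; 0.0430 with DESeq2).

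The enzymes that supply deoxynucleotides and the regulators of entry into S phase had fold changes near 0 or above it, apart from Ccne2 and Rrm1. Tyms, which makes thymidylate, gave 60.2, 43.5 and 50.1 CPM in cKO and 44.6, 50.9 and 32.6 CPM in WT (log2 0.26 ± 0.17 with 6 libraries and 0.08 ± 0.14 without WT 3). Rrm1 and Rrm2, the ribonucleotide reductase subunits, had log2 values of -0.15 ± 0.08 and -0.02 ± 0.10 without WT 3. E2f1, the activating factor of S-phase genes, gave 34.7, 37.3 and 34.5 CPM in cKO and 33.0, 32.7 and 23.03 CPM in WT, with no overlap (log2 0.26 ± 0.14 with 6 libraries, edgeR adjusted p = 0.305; 0.09 ± 0.09 without WT 3). Ccne1, the cyclin that starts S phase with Cdk2, gave 28.6, 24.1 and 26.2 CPM in cKO and 23.5, 23.3 and 11.5 CPM in WT (log2 0.43 ± 0.24, edgeR adjusted p = 0.318; 0.14 ± 0.12 without WT 3). E2f1 and Ccne1 had all cKO libraries above all WT libraries, but neither difference passed the test. For Ccne1 the ranges overlapped under the scaling factors of the fit without WT 3. Chaf1b, a histone chaperone of new DNA, had a log2 value of 0.04 ± 0.12, and Slbp one of -0.10 ± 0.11. Ccne2 was the member of widest spread, at 4.76, 8.84 and 9.14 CPM in cKO and 9.37, 9.27 and 3.83 CPM in WT.

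Setting replication against mitosis within a library leaves out nearly all of the choice of library scaling. The mean log2 CPM of the 23 replication members minus that of the 25 mitosis members was -0.27, -0.28 and -0.27 in cKO 1, 2 and 3 and -0.38, -0.33 and -0.10 in WT 1, 2 and 3. The cKO libraries lay within a narrow band (-0.270 ± 0.007, SD, n = 3) between WT 1 and WT 2 on one side and WT 3 on the other (WT -0.274 ± 0.150, SD, n = 3). Replication members were thus higher relative to mitosis members in cKO than in WT 1 and WT 2 by 0.09 log2, and lower than in WT 3. The group means differed by 0.00 with WT 3 included. These differences carry no test, because the members were chosen with earlier results known.

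**Figure D4:**
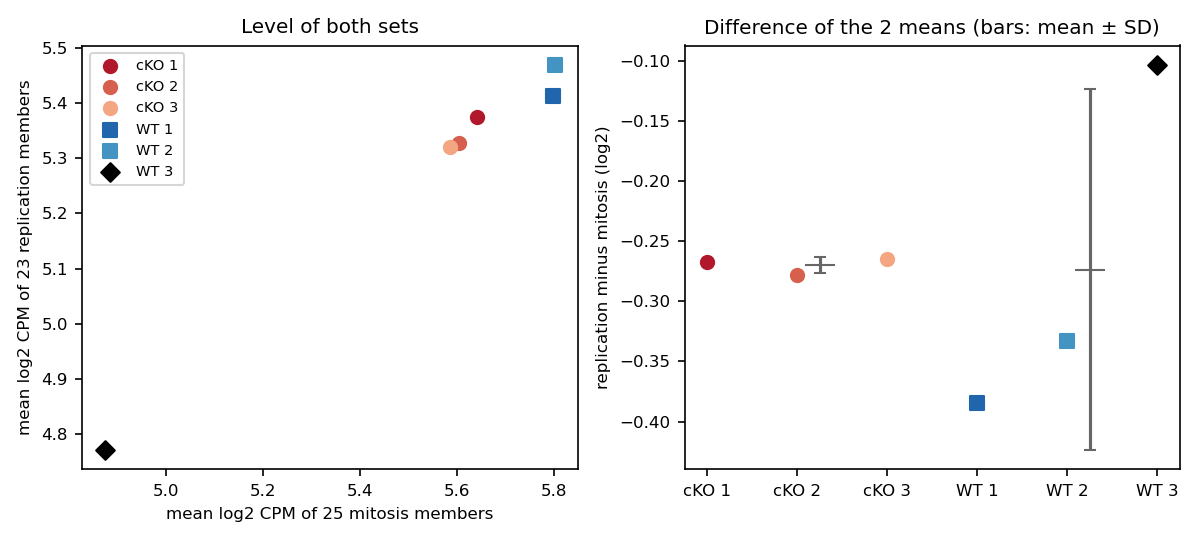
Left, mean log2 CPM of the 23 replication members (y axis) against that of the 25 mitosis members (x axis) in each library; right, their difference in each library, with grey bars for mean ± SD of 3 libraries per group. WT 3 lies at the low end of both sets and has the highest difference (-0.10), and the 3 cKO libraries lie between it and WT 1 and WT 2.

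Levels between genes are compared per kilobase of exon, taking all annotated exons of a gene together. This length can exceed that of the RNA a gene makes, so the order depends on the annotation. In WT 1 and WT 2, Pcna was highest at 83.4 CPM per kb, followed by Cdc20 at 43.1, Ccnb2 at 31.5 and Ccna2 at 28.7 CPM per kb. Cdc6 (2.16 CPM per kb) and Ccne2 (2.67 CPM per kb) were lowest. In cKO, Pcna and Cdc20 stood at 77.9 and 40.1 CPM per kb, and in WT 3 at 64.4 and 20.1 CPM per kb.

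The other genes of both processes were read from lists that exclude the members. The lists hold 63 other replication and 71 other mitosis genes, all tested. With 6 libraries 0 were called in either list by edgeR, with 1 and 2 at an unadjusted p under 0.05. Of all 14789 tested genes, 10.9% were called and 3641 had an unadjusted p under 0.05. The smallest p were those of Pold2, Gins1 and Dut in the replication list (lowest edgeR adjusted p = 0.122) and of Tuba1c, Cdc25b and Ect2 in the mitosis list (lowest edgeR adjusted p = 0.0695). WT 3 was below the mean of WT 1 and WT 2 for 62 of 63 (median -0.54, the exception Gins4) and 70 of 71 (median -0.92, the exception Pttg1). Among all tested genes, 49.6% lay below that mean. Without WT 3, 8 of 71 other mitosis genes were called lower and 0 higher (68 negative, median -0.27). Of 63 other replication genes, 2 were called lower and 0 higher (48 negative, median -0.11). Of all 14941 genes tested without WT 3, 7.50% were called lower and 7.19% higher, and 7833 were negative. Ect2, the exchange factor that activates RhoA at the cleavage furrow, gave 30.6, 26.5 and 24.8 CPM in cKO and 41.5, 47.2 and 24.3 CPM in WT (log2 -0.72 ± 0.12 without WT 3, edgeR adjusted p = 0.00654). Foxm1, a transcription factor of mitosis genes, gave 53.0, 57.5 and 56.0 CPM in cKO and 69.5, 71.7 and 31.3 CPM in WT (log2 -0.37 ± 0.08, edgeR adjusted p = 0.0171). Ckap5, Tuba1c, Kif18b, Ncapd3, Smc4 and Smc2 were the other mitosis genes called, from -0.32 to -0.46. In the replication list the calls were Pold2, a subunit of polymerase delta (log2 -0.45 ± 0.10, edgeR adjusted p = 0.0224), and Atad2 (-0.34 ± 0.09, edgeR adjusted p = 0.0388).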

How the data were processed

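Each deposited file gives the authors' raw counts of reads by gene symbol for a single sample. The submitters' processing notes name TopHat2 2.0.13, HTSeq and mm10, while annotation and strand setting are not given there. HTSeq's closing lines (12.1% to 14.3% of counts in no gene, 1.64% to 2.82% ambiguous) were kept out. Counts were tested with edgeR 4.0.16 (R 4.3.3): filterByExpr with a minimum count of 10, TMM factors, quasi-likelihood F test on group, Benjamini-Hochberg over all 14789 genes (14941 without WT 3), threshold 0.05. SE is the log2 fold change over the square root of F. CPM use the factors from 6 libraries, and log2 CPM a prior count of 2. Replicates are mice per the design text, and p-values measure the spread between these libraries only. No library was a repeat of another (chi-square over its degrees of freedom 13.4 or more within groups). At 3 counts, the limit for a gene at 0 is 0.0649 to 0.117 CPM (counting error only). Positions and exon lengths come from GENCODE M21 (GRCm38), and 13 of 48 members share exonic bases with another gene. Members and lists were chosen with earlier results of these data known. Genes named in full were those called in either fit, the 3 smallest p of each set and fit, and 6 usual markers of division; of the other lists, called genes or the smallest p. Other values, such as those of Ccne2, Plk1 and Slbp, and the names Smc2 and Smc4, were picked after being seen. Alternatives used DESeq2 1.42.0, limma 3.58.1, other scalings and filters, left-out libraries and the replicate number as a block. The fit was tested on simulated data. The values of 1 marker gene are not reported here.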

Additional observations from a re-analysis of the deposited data

How the results depend on the processing

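With 6 libraries, 0 members were called under every alternative that kept WT 3. Leaving out 1 library gave 0 to 5 mitosis members lower, the 5 being those without WT 3. Over all genes, 706 higher and 912 lower became 1273 and 606 with total counts, 276 to 1075 and 459 to 1120 with 1 library left out, and 461 higher with the replicate block.

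Without WT 3, the 5 mitosis calls became 3 with DESeq2 factors, 2 with upper-quartile factors, 1 with total counts, 0 with the replicate block and 0 to 7 with a further library left out; replication calls were 1 with the DESeq2 test and 0 to 2 with a library left out. The replication and mitosis medians were -0.042 and -0.17 with upper-quartile factors and 0.014 and -0.11 with total counts. The mitosis median was -0.20 with the block and -0.24 to -0.20 with a library left out. Over all genes, 1075 higher and 1120 lower became 1636 and 664 with total counts, 102 and 206 with the block, and 215 to 1592 and 290 to 1310 with a library left out.

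The sign of these genes turned, and no value of the turned sign was called. With 6 libraries, Ccna2 and Tpx2 were at 0.026 and 0.017 with upper-quartile factors; Ccna2, Tpx2, Kif11 and Nusap1 were at 0.11, 0.096, 0.056 and 0.068 with total counts, 0.059, 0.055, 0.015 and 0.013 with limma-voom, and 0.056, 0.052, 0.013 and 0.011 with the replicate block. Ccna2 was at 0.0024 with at least 50 counts. Leaving out 1 library, log2 values ran from -0.12 to 0.11 for Pcna, -0.29 to 0.16 for Ccna2, -0.31 to 0.17 for Tpx2, -0.28 to 0.23 for Uhrf1, -0.35 to 0.087 for Kif11, -0.32 to 0.10 for Nusap1, -0.047 to 0.37 for Ube2c, -0.10 to 0.23 for Mki67, -0.17 to 0.21 for Mcm2, -0.17 to 0.26 for Top2a, -0.12 to 0.31 for Cdk1 and -0.24 to 0.25 for Ccnb1. Without WT 3, Ube2c was at 0.020, 0.073 and 0.024 with upper-quartile factors, total counts and the block, and Mki67 and Cdk1 at 0.025 and 0.00020 with total counts. With a further library left out, Tyms ran from -0.029 to 0.19 and Ube2c from -0.14 to 0.034. The cause was not tested.

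The correlations of the deviations of same-numbered libraries were -0.21, -0.12 and 0.07, and not every library correlated best with its own number. Those of cKO 1 with WT 2 and of cKO 2 with WT 1 were 0.18 and 0.22. Such correlations cannot show whether libraries shared a litter or batch. A lone library left in an arm is assumed to vary like the other group.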

Other observations

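Among tested genes outside the members and the other listed cell cycle genes, median differences by promoter letters were all between -0.09 and 0.00 log2. For 350 genes with E2F letters the median difference of WT 3 from WT 1 and WT 2 was -0.09 log2, for 1463 genes with CHR letters anywhere in the window it was 0.00 log2, for 587 with both CHR and CCAAT letters -0.02 log2, and for 252 with CHR letters near the start -0.09 log2, beside 0.00 for the 11007 such genes with a promoter. Without WT 3, the median log2 fold changes between cKO and WT of these 4 groups were -0.06, -0.03, -0.04 and -0.09 in that order, beside -0.02. These grouping rules were chosen after the data were seen and carry no test.

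Of 16 D-type cyclins, partner kinases, Rb family genes and inhibitors, edgeR called 5 higher and 3 lower in cKO with 6 libraries. Without WT 3, 6 were called higher and 4 lower. Of the 48 members, 0 were called with 6 libraries and 5 without WT 3. Of all tested genes, 10.9% were called with 6 libraries, and 7.19% were higher and 7.50% lower without WT 3. Ccnd2, a D-type cyclin of G1, gave 254, 233 and 255 CPM in cKO and 118, 96.3 and 79.2 CPM in WT (log2 1.34 ± 0.14, edgeR adjusted p = 7.36e-04, with 6 libraries; 1.18 ± 0.12 without WT 3). Ccnd1 and Ccnd3 had log2 fold changes of 0.68 ± 0.16 and 0.96 ± 0.12 with 6 libraries, and 0.48 ± 0.10 and 0.81 ± 0.10 without WT 3. The 16 genes ran from -0.62 to 1.34 (median 0.04, 7 negative) with 6 libraries. Without WT 3 they ran from -0.92 to 1.18 (median -0.14, 9 negative), so the D-type cyclins do not stand for the list.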
